A study of Mus musculus with 41 samples.

Results

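The step from 3 to 5 days in AloXR medium was examined in wild-type E14 mouse embryonic stem cells, an established line derived from the blastocyst. It asks what still changes in cells that have left naive pluripotency and are being held in the formative state. The libraries were taken by their labels, Esrrb WT at AloXR day 3 (4 libraries) and day 5 (4 libraries), which is 8 of the 41 libraries of the series. All cells had been grown in 2iL (the GSK3 inhibitor CHIR99021, the MEK inhibitor PD0325901 and LIF), plated on fibronectin in N2B27 for 1 day and then moved to AloXR, which adds activin A, XAV (a tankyrase inhibitor) and BMS439 (the labels' spelling; a retinoic acid receptor blocker) to N2B27. The labels describe splitting of the cells every other day, so that a passage lies between the times compared. For comparison, WT cells in 2iL (3 libraries) and at AloXR day 1 (4 libraries) were used, together with KO2 and KO3, which are lines of the same origin depleted for the nuclear receptor Esrrb (KO2 with 4 libraries at each of days 3 and 5, KO3 with 2 at each). WT is 1 line, and the labels do not say whether the libraries of a day are separate cultures, so p-values measure only the spread between these libraries, which may be technical.

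Naive pluripotency corresponds to the epiblast before implantation and rests on factors such as Klf4, Tfcp2l1, Esrrb and Nanog. After implantation the epiblast passes through a formative phase, in which the naive factors are shut off and Otx2, Pou3f1, Fgf5 and the de novo DNA methyltransferases are on, before it becomes primed for the germ layers. FGF acting through ERK drives the exit from the naive state. Activin and Nodal act through Smad2 and Smad3, and their signal holds formative and primed cells in culture, while the tankyrase inhibitor in AloXR dampens Wnt signalling.

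RNA was measured with QuantSeq, a 3′ tag method in which read numbers need no correction for transcript length, and levels are given as CPM, the deposited unit (reads scaled to the same total in every library). The 8 libraries held 4216367 to 5527699 assigned reads, and 17504 to 18469 genes had at least 1 read. A gene with 0 reads could have up to 3, or 0.543 to 0.712 CPM in these libraries (counting error only). Across genes, libraries of 1 day correlated with r between 0.987 and 0.990, and libraries of different days between 0.970 and 0.976. Within each day, libraries 3 and 4 were closer to each other (chi-square per degree of freedom 2.40 at day 3 and 1.78 at day 5) than any other pair (3.98 to 7.92), and no pair agreed within sampling noise. The labels name no batch, and day and any handling that went with it cannot be told apart. The share of reads from the mitochondrially encoded protein genes was 1.16% ± 0.29 at day 3 and 0.73% ± 0.12 at day 5 (SD, n = 4 each), a difference that an exact two-sided permutation test did not call (p = 0.0857, 0.257 after adjustment over 3 library measures, where 70 splits allow no p below 0.0286).

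Esrrb (ENSMUSG00000021255, chromosome 12, 86361117 to 86521628; positions here are those of GENCODE vM21 on GRCm38) was almost gone at both times, with 1.83, 1.75, 1.19 and 1.63 CPM at day 3 and 0.87, 0.99, 0 and 0.65 CPM at day 5, against 434, 381 and 309 CPM in 2iL. All 4 day 5 libraries lay below all 4 of day 3, but at these few reads the change did not pass (-0.71 ± 0.27, adjusted p = 0.0557). Otx2, a homeobox factor that drives the exit from naive pluripotency, stayed high, with 421, 397, 441 and 470.4 CPM at day 3 and 363, 384, 373 and 428 CPM at day 5 (-0.16 ± 0.20, adjusted p = 0.649). The naive regulators Klf2, Klf4, Tfcp2l1, Tbx3 and Zfp42 had group means of 2.12, 1.96, 2.68, 0.66 and 0.86 CPM at day 3 and 1.78, 3.01, 2.75, 0.55 and 0.43 CPM at day 5, against 481, 352, 618, 314 and 199.5 CPM in 2iL. None of these 5 was called in the step by limma.

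Between day 3 and day 5, 2364 of 16967 genes (13.9%) were called, which here means an adjusted p under 0.05 by limma and a change of at least 1.5-fold, or 0.585 on the log2(CPM + 1) scale on which all changes are given. Of these, 1690 rose (9.96% of the genes tested) and 674 fell (3.97%). A change of at least 2-fold was called for 833 genes and one of at least 4-fold for 57. The median change of all genes was 0.07. How the calls divide between rises and falls depended on how libraries were scaled to each other: rises were 71.5% of calls on the deposited scale, 63.0% with DESeq2 size factors, 59.0% with TMM factors, 57.8% in edgeR and 51.5% after quantile normalization, while the total stayed between 2140 and 2364. For 4674 genes (27.5%) the 4 libraries of 1 day lay entirely beyond those of the other, upward for 2904 (17.1%) and downward for 1770 (10.4%). The step was smaller than those before it, since 3177 genes (18.7%) were called from day 1 to day 3, with 9.81% up and 8.91% down, and 6180 (36.4%) from 2iL to day 1, with 17.8% up and 18.7% down. The comparison of day 3 with day 1 shares the day 3 libraries. The genes that fell were more often abundant: 27.7% of them had a group mean of at least 50 CPM, against 16.7% of those that rose and 23.1% of all genes tested.

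**Figure D1:**
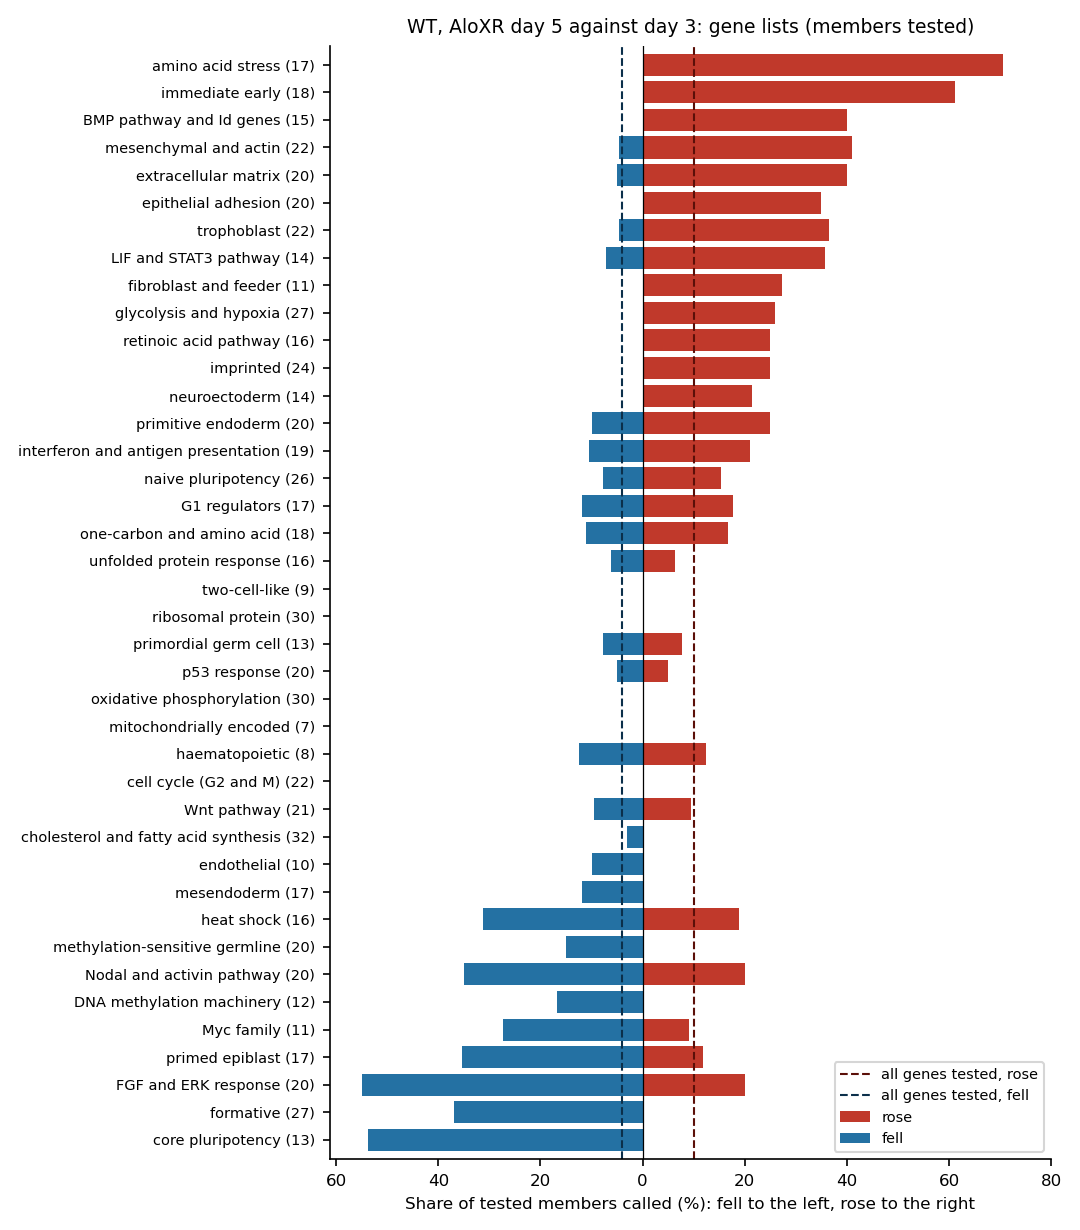
Share of the tested members of each of 40 gene lists that were called between AloXR day 3 and day 5 in WT, with rises to the right and falls to the left (percent of members tested, whose number is in parentheses). The dashed lines mark all 16967 genes, of which 9.96% rose and 3.97% fell. Amino acid stress and immediate early genes have the highest shares of rises, and FGF and ERK response, core pluripotency and formative genes the highest shares of falls. Lists share genes, so the bars are not independent.

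Part of the formative genes fell, and none was called as a rise. Of 27 formative genes tested, 10 were called, each as a fall (all genes, 3.97%), and the median change of the list was -0.44. The lists used here share genes, so their counts are not independent. Of these falls, Fgf15, Etv5, Etv4 and Fgf5 are also in the FGF and ERK list. Lef1 is also in the Wnt list, Myc in the Myc family and Dnmt3b among the DNA methylation enzymes. Pou3f1, a POU factor of the postimplantation epiblast, had 339, 280.1, 406 and 421 CPM at day 3 and 158, 156, 179.8 and 179.6 CPM at day 5 (-1.08 ± 0.18, adjusted p = 2.02e-05). Fgf5, the ligand used most often to mark formative cells, went from 174, 165, 195 and 199 CPM to 96.8, 98.9, 94.3 and 69.2 CPM (-1.03 ± 0.14, adjusted p = 2.55e-07). For both genes every day 5 library was below every day 3 library. These falls followed a rise, since Fgf5 stood at 0.24 CPM in 2iL and 109 CPM at day 1, and at day 5 it lay in the range of 69.2 to 98.9 CPM. In bulk RNA, fewer cells that express a gene and less RNA per cell cannot be told apart, for these or any of the genes below. Dnmt3b, which lays down new DNA methylation, held 2472, 2251, 2144 and 2383 CPM at day 3 and 1101, 1023, 1278 and 1318 CPM at day 5 (-0.98 ± 0.26, adjusted p = 0.00754). Its partner Dnmt3a moved the same way by slightly less than the 1.5-fold required (-0.58 ± 0.10, adjusted p = 5.98e-05), and the cofactor Dnmt3l, at 133 CPM on day 1, had only 0.20, 0.65, 0.47 and 0.36 CPM at day 3 and 0, 0, 0 and 0.65 CPM at day 5.

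Not all formative genes moved. Besides Otx2, the zinc finger genes Zic2 (-0.15 ± 0.26, adjusted p = 0.756) and Zic5 (-0.50 ± 0.12, adjusted p = 0.00283) and the RNA-binding protein gene Lin28b (0.26 ± 0.15, adjusted p = 0.238) were not called. Zic5 did lie lower in all 4 day 5 libraries (269.7, 272, 286 and 309.9 CPM at day 3 and 205, 205, 203 and 189 CPM at day 5), and Lin28b higher in all 4 (56.2, 53.04, 59.5 and 55.9 CPM at day 3 and 72.6, 66.4, 64.3 and 66.8 CPM at day 5). Sall2, a zinc finger gene of the epiblast, was called as a fall (125, 109, 129 and 131 CPM at day 3 and 92.5, 84.4, 68.7 and 74.8 CPM at day 5; -0.62 ± 0.15, adjusted p = 0.00196), a call that was lost without library 3 of day 5, where the change was -0.55. Among the DNA methylation enzymes, 2 of 12 were called, Dnmt3b and Tet1, both as falls (all genes, 3.97%). The Tet1 call (-0.60 ± 0.19, adjusted p = 0.0223) was lost without any 1 of libraries 1, 3 and 4 of day 3 and 1 and 2 of day 5 (adjusted p = 0.0555 to 0.0951).

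The pluripotency network that naive and primed cells share also fell in part. Of 13 core pluripotency genes, 7 fell (all genes, 3.97%), the other 6 were not called, and the list median was -0.61. Foxd3, a forkhead factor needed to keep epiblast cells undifferentiated (ENSMUSG00000067261, chromosome 4, 99656299 to 99658622), held 82.6, 86, 169 and 145 CPM at day 3 and 17.2, 16.1, 29.3 and 23.1 CPM at day 5 (-2.41 ± 0.38, adjusted p = 3.06e-05). Tdgf1 (Cripto), the coreceptor through which Nodal signals (ENSMUSG00000032494, chromosome 9, 110939603 to 110946158), held 67.8, 101, 87.99 and 84.7 CPM at day 3 and 11.8, 15.7, 22.1 and 15.5 CPM at day 5 (-2.34 ± 0.19, adjusted p = 4.43e-11). In both genes the days were well separated. L1td1, an RNA-binding protein gene of pluripotent cells, went from 548, 434, 582 and 637 CPM to 214, 186, 213 and 187 CPM (-1.45 ± 0.31, adjusted p = 0.00125). Utf1, a chromatin factor gene, went from 319, 411, 365 and 312 CPM to 150.1, 144, 182 and 156 CPM (-1.15 ± 0.34, adjusted p = 0.016). Zscan10, a zinc finger gene of pluripotent cells, fell by 0.97 on the log2 scale.

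The central factors changed less. Sox2 overlapped between days, with 82.8, 76.6, 114 and 122 CPM at day 3 and 112, 76.1, 66.4 and 95.2 CPM at day 5 (-0.18 ± 0.24, adjusted p = 0.674). Pou5f1 (Oct4) had 11.2, 13.97, 18.02 and 20.99 CPM at day 3 and 10.7, 8.92, 11.6 and 8.73 CPM at day 5 and was called as a fall (-0.61 ± 0.19, adjusted p = 0.0194). The days overlapped, and the call was lost without any 1 of libraries 3 and 4 of day 3 and 2 and 4 of day 5 (adjusted p = 0.0569 to 0.112). Few tags were assigned to Pou5f1 even in 2iL (13.8 CPM). Genes with near-identical copies, such as Pou5f1, Actb, Gapdh, Krt8, Krt18 and Hspa8, may have had their reads divided between copies, as may the class I genes H2-K1 and H2-D1, so their levels are uncertain. Nanog moved the other way: it had 48.1, 54.1, 39.8 and 30.2 CPM at day 3 and 105, 96.5, 73.2 and 84.02 CPM at day 5 and rose (1.06 ± 0.17, adjusted p = 1.06e-05), after 18.1 CPM at day 1 and 506 CPM in 2iL.

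**Figure D2:**
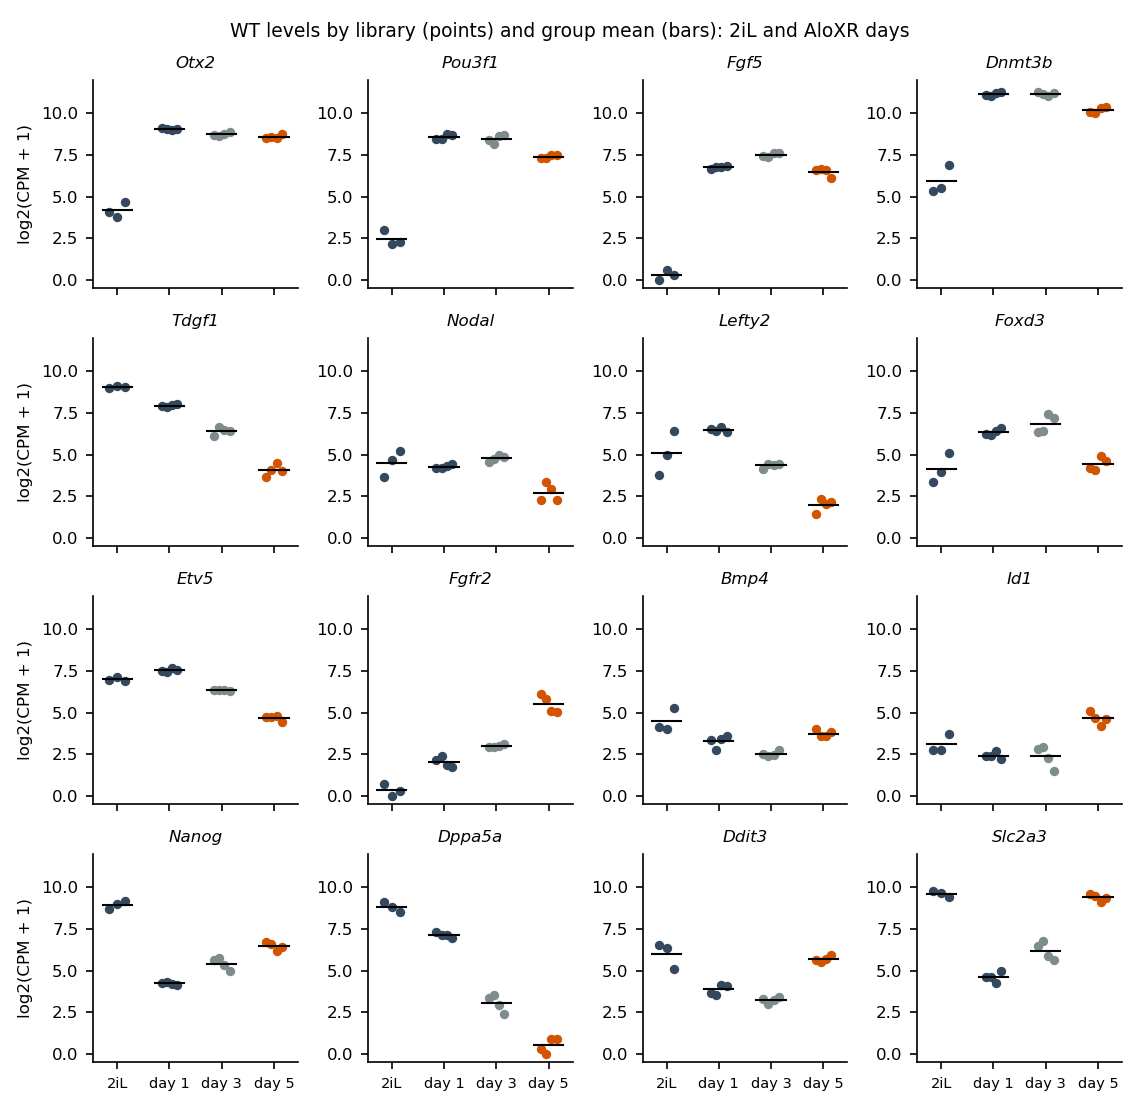
Levels of 16 genes in the WT libraries, as log2(CPM + 1), in 2iL (3 libraries) and at AloXR days 1, 3 and 5 (4 libraries each). Points are libraries and bars are group means. Fgf5, Tdgf1, Nodal, Lefty2, Foxd3 and Etv5 are lower at day 5 than at day 3, and Fgfr2, Bmp4, Id1, Nanog, Ddit3 and Slc2a3 are higher.

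The Nodal pathway changed at its ligand, coreceptor and targets. Nodal, the TGF-beta family ligand of the epiblast (ENSMUSG00000037171, chromosome 10, 61417972 to 61425338), had 22.3, 25.97, 30.6 and 27.9 CPM at day 3 and 3.93, 9.11, 6.59 and 3.93 CPM at day 5 (-2.07 ± 0.28, adjusted p = 1.58e-06). Its feedback inhibitor and direct target Lefty2 had 16.6, 20.5, 20.2 and 20.6 CPM at day 3 and 1.75, 3.96, 3.18 and 3.49 CPM at day 5 (-2.35 ± 0.39, adjusted p = 4.81e-05). Every day 5 library lay below every day 3 library in both genes. Together with Tdgf1, already described, these are among the 15 deepest falls in the step. Lefty1 was lower as well, with 36.9 to 59.5 CPM at day 3 and 12.2 to 32.5 CPM at day 5 (-1.10 ± 0.40, adjusted p = 0.0493). The activin antagonist gene Fst had 19.3 to 32.5 CPM at day 3 and 5.75 to 11.1 CPM at day 5 (-1.41 ± 0.46, adjusted p = 0.0296). Neither call was stable. That of Lefty1 was lost without any 1 library except library 2 of day 5 (adjusted p = 0.0526 to 0.183). That of Fst was lost without any 1 of libraries 2 and 3 of day 3 and 2 and 4 of day 5 (adjusted p = 0.0532 to 0.0917).

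In all, 7 of 20 Nodal and activin genes fell (all genes, 3.97%), the others being the inhibitor Smad7 (-1.02) and the ligand gene Gdf3 (-0.96). Another 4 rose (all genes, 9.96%): the receptor gene Acvr2b (0.61), the pseudoreceptor gene Bambi (0.70), the signal transducer gene Smad3 (0.99) and Inhba. Inhba encodes the subunit of activin A, which the medium supplies as protein. The gene remained low, with 0.61, 0.87, 0.71 and 0.36 CPM at day 3 and 2.84, 2.38, 4.55 and 3.93 CPM at day 5 (1.41 ± 0.25, adjusted p = 3.93e-05), and the days did not overlap. Acvr2b fell below 1.5-fold without library 2 of day 3 or 1 or 3 of day 5 (0.56 at the lowest), and Bambi lost its call without library 1 of day 5 (adjusted p = 0.0711). The median over the list was -0.11.

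In the FGF and ERK list, 4 ligand genes fell, 2 receptor genes rose, and the genes that the pathway induces divided. Of 20 tested, 11 fell (all genes, 3.97%) and 4 rose (9.96%), with a median of -0.88. Of the 14 that are neither ligand nor receptor, 7 fell, 2 rose and 5 were not called, namely Fosl1 (-0.11), Spred1 (-0.09), Spry1 (0.01), Ier3 (0.41) and Egr1 (0.70). Among the ETS factors that ERK induces, Etv5 went from 79.8, 82.1, 79.9 and 79.1 CPM to 25.5, 25.96, 27.5 and 20.7 CPM (-1.65 ± 0.11, adjusted p = 3.57e-15). Etv1 went from 46.3, 38.6, 42.2 and 49.4 CPM to 11.6, 12.3, 17.1 and 10.3 CPM (-1.73 ± 0.34, adjusted p = 0.000313). Etv4 fell by 1.35 on the log2 scale. The libraries of a day were close together for Etv5, and the days lay far apart.

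Also called as falls were 4 feedback inhibitors of the pathway, the Sprouty genes Spry4 (-1.34) and Spry2 (-1.32) and the ERK phosphatase genes Dusp4 (-1.36) and Dusp6 (-0.96). Dusp4 lost its call without any 1 library except library 3 of day 5 (adjusted p = 0.0549 to 0.107). The ligand genes Fgf4 (-0.79) and Fgf5, given above, fell too. Fgf15 had 20.99 to 26.8 CPM at day 3 and 4.58 to 7.73 CPM at day 5 (-1.71 ± 0.23, adjusted p = 4.33e-07). Fgf8 had 3.26 to 9.39 CPM at day 3 and 1.31 to 2.97 CPM at day 5 (-1.38 ± 0.36, adjusted p = 0.0048). Fgfr2, the receptor of epithelial cells, rose from 6.70, 6.55, 7.12 and 7.6 CPM to 69.6, 55.3, 34.1 and 32.5 CPM (2.54 ± 0.27, adjusted p = 1.77e-09). At day 5 libraries 1 and 2 lay above libraries 3 and 4, and all were above day 3. The other rises were Fgfr1 (0.63), Phlda1 (1.43) and Dusp5 (1.55). For Fgfr1 the change without library 1 of day 5 was 0.52, below the 1.5-fold required.

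Some genes of the BMP pathway rose, and targets of the pathway differed among themselves. Of 15 tested, 6 were called, all upward (all genes, 9.96%), and 9 were not called (list median 0.33). Id1, an inhibitor of basic helix-loop-helix factors and a direct BMP target, had 6.09, 6.55, 3.79 and 1.81 CPM at day 3 and 33.6, 25.2, 17.1 and 23.8 CPM at day 5 (2.28 ± 0.34, adjusted p = 3.49e-06). Bmp4 had 4.67, 4.37, 4.51 and 5.79 CPM at day 3 and 15.1, 11.1, 10.9 and 13.1 CPM at day 5 (1.21 ± 0.27, adjusted p = 0.00097). Its relative Bmp7 had 7.91, 8.73, 6.17 and 7.96 CPM at day 3 and 34.7, 31.9, 17.1 and 17.9 CPM at day 5 (1.54 ± 0.32, adjusted p = 0.000495). In these 3 genes no day 5 library reached down to day 3. The antagonist Nog was at 0 to 0.18 CPM at day 3 and 0.79 to 2.18 CPM at day 5 (1.10 ± 0.26, adjusted p = 0.00167). Id4 (1.06) and the inhibitory Smad gene Smad6 (0.82) were the other rises. Id4 lost its call without library 3 of day 3 or 4 of day 5 (adjusted p = 0.0506 to 0.0553), and Smad6 without any 1 library except library 4 of day 3 or 2 of day 5 (adjusted p = 0.061 to 0.104). Id3, like Id1 a direct BMP target, lay at -1.48 (adjusted p = 0.102) and Id2 at -0.18 (adjusted p = 0.659), and neither was called.

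A few retinoic acid genes rose, in cells held with a retinoic acid receptor blocker. Of 16 tested, 4 were called, each as a rise (all genes, 9.96%), and 12 were not called (median 0.24). Crabp2, which carries retinoic acid to its receptor, had 15.6, 16.8, 19.9 and 16.1 CPM at day 3 and 47.1, 46.96, 42.7 and 39.7 CPM at day 5 (1.32 ± 0.22, adjusted p = 1.65e-05). Dhrs3, which reduces retinaldehyde, had 1.62, 4.15, 2.37 and 2.17 CPM at day 3 and 9.82, 9.31, 6.59 and 6.33 CPM at day 5 (1.36 ± 0.30, adjusted p = 0.000915). Cyp26a1, the enzyme that degrades retinoic acid, was at 0, 0.22, 0 and 0.18 CPM at day 3 and 2.62, 2.38, 0.23 and 0.44 CPM at day 5 (0.98 ± 0.25, adjusted p = 0.00408). Libraries 1 and 2 of day 5 carried most of its rise, and the highest day 3 library and the lowest of day 5 held 1 read each. In Crabp2 and Dhrs3 the days did not overlap. The plasma carrier gene Rbp4 was at 0.24 to 0.54 CPM at day 3 and 0.99 to 3.49 CPM at day 5 (1.07 ± 0.27, adjusted p = 0.00364).

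Wnt genes were called in both directions. Of 21 tested, 2 fell (all genes, 3.97%), 2 rose (9.96%) and 17 were not called, with a median of -0.05. Lef1, the transcription factor at the end of the pathway, had 46.1, 37.1, 52.2 and 49.4 CPM at day 3 and 15.9, 13.1, 15.2 and 13.8 CPM at day 5 (-1.60 ± 0.17, adjusted p = 3.07e-09). Ccnd1 (cyclin D1) had 368, 318, 395 and 351 CPM at day 3 and 169, 188, 168 and 154 CPM at day 5 (-1.07 ± 0.20, adjusted p = 0.000205). For both genes the days were separate, as they were for the rises. Sfrp1, a secreted Wnt antagonist, had 19.4 to 27.5 CPM at day 3 and 61.2 to 76.6 CPM at day 5 (1.47 ± 0.26, adjusted p = 6.98e-05). Rnf43, which removes Wnt receptors from the surface, had 0.24 to 1.31 CPM at day 3 and 1.82 to 3.71 CPM at day 5 (1.09 ± 0.26, adjusted p = 0.00196).

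Cell cycle entry genes and the Myc family moved in both directions. Of 17 regulators of G1, 2 fell (all genes, 3.97%), Ccnd1 and Ccne1 (cyclin E1, -0.87), and 3 rose (all genes, 9.96%), with a median of 0.14. The rises were the cell cycle brake Rb1 (0.68), the kinase gene Cdk6 and cyclin D2. Cdk6 had 31.1 to 42.8 CPM at day 3 and 104 to 157 CPM at day 5 (1.78 ± 0.19, adjusted p = 7.4e-09). Ccnd2 (cyclin D2) had 24.9 to 40.3 CPM at day 3 and 75.1 to 129 CPM at day 5 (1.53 ± 0.27, adjusted p = 8.1e-05). Cyclin D1 thus fell by 1.07 on the log2 scale while cyclin D2 rose by 1.53. Mycn, the more abundant Myc gene of these cells, went from 138, 127, 161 and 159 CPM to 54.5, 50.5, 49.3 and 44.5 CPM (-1.53 ± 0.25, adjusted p = 4.11e-05). Myc went from 5.68, 7.64, 12.6 and 8.14 CPM to 1.09, 0.99, 5.68 and 1.53 CPM (-1.67 ± 0.43, adjusted p = 0.00504), with library 3 of day 5 as high as library 1 of day 3. In the Myc family (median 0.13), 3 of 11 fell (all genes, 3.97%), the third being the Myc antagonist Mxd4 (-0.93). The antagonist Mxi1 was called as a rise (0.63 ± 0.16, adjusted p = 0.00378). It was not called under TMM, DESeq2 or quantile scaling (0.54, 0.57 and 0.51), nor without library 3 or 4 of day 3 (0.51 and 0.56).

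Naive genes showed no common direction. Of 26 tested, 4 rose (15.4%, against 9.96% of all genes) and 2 fell (7.69%, against 3.97%), and the median was -0.10. Dppa5a, an RNA-binding protein gene of naive cells, stood at 455 CPM in 2iL and 140.0 CPM at day 1. It then had 9.33, 10.5, 6.64 and 4.34 CPM at day 3 and 0.22, 0, 0.91 and 0.87 CPM at day 5 (-2.53 ± 0.20, adjusted p = 1.92e-12). Dppa4 followed the same path, with 277 CPM at day 1 and 36.7, 38.2, 48.6 and 46.9 CPM at day 3 and 6.76, 10.3, 14.6 and 12.2 CPM at day 5 (-1.90 ± 0.18, adjusted p = 2.3e-10). Against them, Nanog, Klf5, Fbxo15 and Socs3 rose. Klf5, a zinc finger factor, had 16.8 to 19.2 CPM at day 3 and 30.8 to 39.8 CPM at day 5 (0.96 ± 0.15, adjusted p = 6.01e-06). Fbxo15, an F-box gene, had 2.84 to 6.40 CPM at day 3 and 6.55 to 13.3 CPM at day 5 (1.28 ± 0.27, adjusted p = 0.000731). None of the 4 came near its level in 2iL, where Socs3 stood at 262 CPM, Klf5 at 901 CPM and Fbxo15 at 543 CPM.

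Socs3 is a target and feedback inhibitor of STAT3, the factor that LIF activates, and LIF is a component of 2iL but not of AloXR. It had 3.45, 4.80, 4.98 and 3.44 CPM at day 3 and 13.7, 12.3, 16.1 and 13.3 CPM at day 5 (1.53 ± 0.30, adjusted p = 0.000264), with no overlap. In the LIF and STAT3 list, 5 of 14 rose (all genes, 9.96%), Socs3 with the kinase genes Jak2 (1.49) and Pim1 (1.30), Junb (1.29) and Gfpt2 (0.66). Jak2 had 2.37 to 4.67 CPM at day 3 and 8.92 to 14.2 CPM at day 5 (1.49 ± 0.27, adjusted p = 8.44e-05). Junb had 3.62 to 5.93 CPM at day 3 and 7.73 to 20.5 CPM at day 5 (1.29 ± 0.24, adjusted p = 0.000103). The receptor gene Lifr fell by 1.03 on the log2 scale, a call that was lost without library 1 of day 3 or 2 or 3 of day 5 (adjusted p = 0.058 to 0.0966). The median of the list was 0.45.

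The amino acid stress genes, which the factor ATF4 induces when amino acids run short, had the highest share of rises among the lists. Of 17 tested, 12 rose (all genes, 9.96%), and the median was 0.98. Their summed level was 808 to 919 CPM in the libraries of day 3 and 1613 to 1707 CPM in those of day 5. Ddit3 (CHOP), a stress-induced transcription factor (ENSMUSG00000025408, chromosome 10, 127290774 to 127296288), had 8.73, 7.2, 8.30 and 9.77 CPM at day 3 and 49.7, 45.2, 52.3 and 60.2 CPM at day 5 (2.48 ± 0.40, adjusted p = 3.92e-05). The pseudokinase gene Trib3 had 10.6, 8.73, 20.4 and 18.1 CPM at day 3 and 45.6, 52.9, 60.7 and 53.2 CPM at day 5 (1.88 ± 0.28, adjusted p = 9.87e-06). No library of either day overlapped the other in these genes. The lipoprotein receptor gene Vldlr had 9.95 to 14.7 CPM at day 3 and 36.1 to 53.7 CPM at day 5 (1.71 ± 0.30, adjusted p = 4.6e-05). The secreted hormone gene Stc2 had 10.1 to 14.9 CPM at day 3 and 32.3 to 44.1 CPM at day 5 (1.496 ± 0.23, adjusted p = 6.41e-06). The other 8 ranged from 0.81 for Slc3a2, a subunit of amino acid transporters, to 1.46 for Chac1, which degrades glutathione, and included Atf4 itself (0.83), asparagine synthetase (Asns, 1.25) and the stress factor Nupr1 (1.09). The calls of Chac1 (without library 1 of day 5, adjusted p = 0.0519) and of Nupr1 (without any 1 of libraries 1 and 2 of day 3 and 3 and 4 of day 5, adjusted p = 0.0709 to 0.127) depended on single libraries.

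ATF4 binds, with C/EBP factors, to sites that contain the letters TGATGNAA, and because 12 genes of this list rose, their RefSeq promoters (build GRCm38.p6, 250 bases before to 50 after the start site) were searched for them on both strands. Of 17 genes, 15 matched a promoter, and 6 held the letters, whereas 4.51% of 27025 genes (3.97% of 32851 windows) did. The 5 of them that were called are shown 5′ to 3′ on the gene's strand, with the match in capitals; a match is given as a description and not as a bound site.
Asns, chr6:7693210-7693272, minus strand: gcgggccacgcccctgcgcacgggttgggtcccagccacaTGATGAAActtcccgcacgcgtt
Chac1, chr2:119351009-119351096, plus strand: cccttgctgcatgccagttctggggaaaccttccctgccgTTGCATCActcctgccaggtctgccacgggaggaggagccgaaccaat
Nupr1, chr7:126625533-126625620, minus strand: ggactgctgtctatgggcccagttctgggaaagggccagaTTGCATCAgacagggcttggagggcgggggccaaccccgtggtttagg
Trib3, chr2:152344028-152344057, minus strand: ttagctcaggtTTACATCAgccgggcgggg
Vldlr, chr19:27216780-27216867, plus strand: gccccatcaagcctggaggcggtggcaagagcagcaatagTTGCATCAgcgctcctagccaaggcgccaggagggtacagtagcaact
The first base of the match lies at -23 in Asns, -193 in Chac1, -110 in Nupr1 and -200 in Vldlr, counted from the start site, and at 15 bases into the transcript in Trib3. These 5 genes rose by 1.25, 1.46, 1.09, 1.88 and 1.71 on the log2 scale. The sixth gene with a match, the cystine transporter gene Slc7a11, was not called. The list is made of genes that ATF4 induces, so its share of matches describes the list and not the step. Of the 11 called genes with a promoter in the table, the other 6 (Atf4, Cebpb, Ddit3, Slc3a2, Slc7a1 and Stc2) have no match in these windows.

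Neighbouring metabolic lists changed in part. The one-carbon and serine list had 3 rises and 2 falls among 18 genes (all genes, 9.96% up and 3.97% down), with a median of 0.003. Mthfd2, a mitochondrial folate enzyme, had 107 to 132 CPM at day 3 and 308 to 368 CPM at day 5 (1.41 ± 0.12, adjusted p = 1.14e-11). With it rose the serine synthesis gene Psph (0.91) and Shmt2 (0.64), which links serine to folate. Without any 1 of libraries 3 and 4 of day 3 and 2 and 3 of day 5, Shmt2 stayed below 1.5-fold (0.57 at the lowest). Mat2a, which makes the methyl donor S-adenosylmethionine, fell from 846, 875, 850.3 and 840.3 CPM to 295, 321, 207 and 187 CPM (-1.79 ± 0.33, adjusted p = 0.000196). The spermidine synthase gene Srm fell as well (-0.86 ± 0.14, adjusted p = 1.43e-05). The 4 day 3 libraries of Mat2a lay within a narrow range, and at day 5 libraries 1 and 2 were higher than 3 and 4. Of 16 genes of the unfolded protein response, 1 rose and 1 fell (all genes, 9.96% up and 3.97% down), with a median of -0.19. Herpud1, which helps degrade misfolded proteins, rose (1.08 ± 0.15, adjusted p = 4.9e-07). The chaperone gene Dnajb11 fell (-0.84 ± 0.14, adjusted p = 1.92e-05).

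Some genes of glucose uptake and of the hypoxia response rose. Of 27 tested, 7 were called, all as rises (all genes, 9.96%), and 20 were not (median 0.43). Slc2a3, the high-affinity glucose transporter GLUT3 (ENSMUSG00000003153, chromosome 6, 122727809 to 122801640), rose from 88.1, 109, 57.9 and 48.7 CPM to 791, 729, 555 and 658 CPM (3.21 ± 0.36, adjusted p = 1.68e-07). It had stood at 792 CPM in 2iL and 24.1 CPM at day 1. Slc2a1, the transporter GLUT1, had 281 to 475 CPM at day 3 and 864 to 1047 CPM at day 5 (1.40 ± 0.25, adjusted p = 0.000114). The angiogenic factor Vegfa had 10.96, 11.6, 12.8 and 12.3 CPM at day 3 and 51.04, 52.9, 67.1 and 57.8 CPM at day 5 (2.17 ± 0.22, adjusted p = 4.15e-10). In all 3 genes the days were apart. The remaining rises were the endoplasmic oxidase gene Ero1l (1.46), Ndrg1 (1.23), P4ha1 (1.21) and Adm (0.91). Adm lost its call without any 1 of libraries 3 and 4 of either day (adjusted p = 0.117 to 0.246). No enzyme of the glycolytic chain was among the rises, nor were the hypoxia-response genes Pdk1 (0.20), Egln3 (0.33), Ankrd37 (0.52), Ak4 (0.19) and Bnip3 (0.81). In limma the enzyme genes Hk1 (0.56, adjusted p = 0.0127), Aldoa (0.43, adjusted p = 0.0193) and Gpi1 (0.39, adjusted p = 0.011) were higher by less than 1.5-fold. Ldha was at -0.18 (adjusted p = 0.686).

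Immediate early genes, which growth factors and handling of cells induce within minutes, rose in part. The summed level of the list was 287 to 323 CPM in the libraries of day 3 and 514 to 647 CPM in those of day 5. Of 18, 11 rose (all genes, 9.96%; median 0.71), although under TMM or quantile scaling 8 did. Atf3 had 2.23, 2.84, 3.79 and 3.62 CPM at day 3 and 14.2, 17.6, 20.7 and 18.3 CPM at day 5 (2.19 ± 0.23, adjusted p = 1.24e-09). The AP-1 gene Fosl2 had 0.24 to 1.62 CPM at day 3 and 4.36 to 9.32 CPM at day 5 (1.89 ± 0.26, adjusted p = 5.32e-07). Fos, another AP-1 gene, had 0 to 1.19 CPM at day 3 and 1.96 to 4.15 CPM at day 5 (1.59 ± 0.28, adjusted p = 3.11e-05). Junb, given above, and Btg2 (0.79) rose as well. Btg1 (0.73) lost its call without any 1 library except library 2 of day 5 (adjusted p = 0.0513 to 0.149). Dusp1 (0.65) fell below 1.5-fold without library 2 of day 3 or 3 of day 5 (0.56 at the lowest). Jund (0.63) did so without library 1 of day 5 (0.57). From libraries 1 and 2 of both days alone, 5 of the list were called, and from libraries 3 and 4 alone 10. Time of harvest after a medium change or a passage is not in the labels, and its part in these rises was not tested.

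Heat shock genes were called in both directions. Of 16 genes, 5 fell (all genes, 3.97%), 3 rose (9.96%) and 8 were not called (median -0.24). The falls were the large chaperones and cochaperones Hsph1 (-1.05), Hspa8 (-0.998), Hspd1 (-0.89), Dnaja1 (-0.78) and Chordc1 (-0.72). Hsph1 had 159 to 202 CPM at day 3 and 79.05 to 94.5 CPM at day 5 (-1.05 ± 0.26, adjusted p = 0.0037). The rises were the small heat shock genes Hspb8, Hspb1 (1.03) and Cryab. Hspb8 had 4.87 to 9.95 CPM at day 3 and 21.1 to 31.2 CPM at day 5 (1.65 ± 0.24, adjusted p = 5.31e-06). Cryab had 0.61, 4.15, 3.32 and 0.54 CPM at day 3 and 10.7, 14.7, 4.77 and 4.15 CPM at day 5 (1.66 ± 0.31, adjusted p = 0.000154), and the days met at 4.15 CPM. In the p53 list, Btg2 rose and Aen fell (-0.67 ± 0.18, adjusted p = 0.00701) among 20 genes (all genes, 9.96% up and 3.97% down), with a median of 0.13.

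Part of the epithelial genes rose. Of 20 tested, 7 were called, all as rises (all genes, 9.96%), and 13 were not (median 0.41). Krt18, a keratin of simple epithelia, had 111, 106, 85.1 and 101 CPM at day 3 and 277, 259.9, 229 and 237 CPM at day 5 (1.31 ± 0.22, adjusted p = 4.58e-05). Another, Krt19, had 5.79 to 8.93 CPM at day 3 and 16.6 to 33.9 CPM at day 5 (1.52 ± 0.22, adjusted p = 1.16e-06). The tight junction gene Cldn3 had 17.6 to 28.8 CPM at day 3 and 50.5 to 61.7 CPM at day 5 (1.29 ± 0.27, adjusted p = 0.000437). In each of these genes the days did not overlap. The desmosome gene Dsp (1.20), Cldn4 (1.17), Itga6 (0.61) and Krt8 (0.59) were the other rises. Itga6 fell below 1.5-fold without library 3 of either day (0.53 at the lowest). Krt8 lost its call without any 1 of libraries 3 and 4 of day 3 and 1 and 3 of day 5 (change 0.52 at the lowest). With libraries 1 and 2 alone, or 3 and 4 alone, 3 and 4 of the list were called. The adherens junction gene Cdh1 (E-cadherin) had 695 to 821 CPM at day 3 and 657 to 739 CPM at day 5 and was not called (-0.18 ± 0.09, adjusted p = 0.128).

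Of 22 mesenchymal and actin-associated genes, 9 rose (all genes, 9.96%), 1 fell and 12 were not called (median 0.49), and their summed level went from 1238 to 1660.0 CPM to 2501 to 2737 CPM across libraries. Anxa2, which binds membranes and actin, had 13.8, 15.3, 12.1 and 7.96 CPM at day 3 and 58.9, 55.1, 49.1 and 53.9 CPM at day 5 (2.09 ± 0.20, adjusted p = 2.3e-10). Tpm1 (tropomyosin) had 507 to 765 CPM at day 3 and 1211 to 1416 CPM at day 5 (1.16 ± 0.15, adjusted p = 2.01e-07). Neither gene overlapped between days. The calcium-binding genes S100a6 (1.48) and S100a11 (1.37), the intermediate filament gene Vim (1.08) and the fibronectin gene Fn1 (0.75) were called as rises too. Vim lost its call without any 1 of the 8 libraries (adjusted p = 0.0659 to 0.099), and Fn1 without any 1 of libraries 1 and 2 of day 3 and 1, 3 and 4 of day 5 (adjusted p = 0.0701 to 0.0891). The mesenchymal cadherin Cdh2 was instead lower, with 3.27 to 5.48 CPM at day 3 and 1.75 to 2.62 CPM at day 5 (-0.86 ± 0.30, adjusted p = 0.0334). That call was lost without any 1 of libraries 1, 3 and 4 of day 3 and 2, 3 and 4 of day 5 (adjusted p = 0.0595 to 0.0941). Of 20 matrix genes, 8 rose (all genes, 9.96%) and Nid2 fell (-0.69), with a median of 0.56. Tnc (tenascin C) had 1.42, 0.22, 0.47 and 0 CPM at day 3 and 3.27, 2.97, 4.32 and 3.27 CPM at day 5 (1.62 ± 0.28, adjusted p = 3.34e-05). Hspg2 (perlecan) had 8.32 to 14 CPM at day 3 and 26.6 to 35.5 CPM at day 5 (1.24 ± 0.23, adjusted p = 0.000121). Itga5, a fibronectin receptor subunit, rose from low levels (1.06 ± 0.28, adjusted p = 0.0043).

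Part of the primed epiblast genes fell, while the mesendoderm list showed no common direction. Of 17 primed genes, 6 fell (all genes, 3.97%) and 2 rose, Krt18 and Igfbp3 (1.10), with a median of -0.55. Eomes, the T-box factor that starts mesendoderm, had 30.4, 27.7, 27.8 and 24.8 CPM at day 3 and 8.29, 8.12, 11.6 and 13.1 CPM at day 5 (-1.37 ± 0.42, adjusted p = 0.0175). The call was lost without library 1 of day 5 (adjusted p = 0.0508). Foxa2 had 3.04, 3.27, 3.32 and 2.35 CPM at day 3 and 0.22, 0.79, 0.45 and 1.53 CPM at day 5 (-1.24 ± 0.42, adjusted p = 0.0328). This call was lost without any 1 of libraries 1 to 3 of either day (adjusted p = 0.0535 to 0.103). T (Brachyury) had 0.95 to 2.23 CPM at day 3 and 0.20 to 0.65 CPM at day 5 and was not called (-0.82 ± 0.35, adjusted p = 0.087). The mesendoderm list as a whole had 2 falls among 17 genes (all genes, 3.97%) and a median of 0.04. Its summed level was 35.8 to 40.2 CPM at day 3 and 15.3 to 21.6 CPM at day 5, most of it Eomes. Msgn1 was at 0 in all 8 libraries.

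A few genes of the neuroectoderm list rose, and most were not called. Six3, a forebrain homeobox gene, had 2.23, 2.18, 1.90 and 4.70 CPM at day 3 and 22.03, 14.7, 16.8 and 32.1 CPM at day 5 (2.57 ± 0.28, adjusted p = 3.1e-09). Sox1, an early neural gene of the SoxB group, had 0.41, 0.65, 0.47 and 0.54 CPM at day 3 and 10.2, 10.3, 2.73 and 3.49 CPM at day 5 (2.16 ± 0.35, adjusted p = 1.44e-05). At day 5 its level was higher in libraries 1 and 2 than in 3 and 4. Lmx1b, a homeobox gene of several tissues that is not in the list, had 3.45, 3.06, 0.47 and 0.72 CPM at day 3 and 18.3, 14.7, 13.4 and 14.8 CPM at day 5 (2.64 ± 0.32, adjusted p = 3.11e-08). In these 3 genes every day 5 library was above every day 3 library. Pax6 reached only 1.09, 1.19, 1.59 and 0.65 CPM from 0, 0.65, 0 and 0.36 CPM (0.78 ± 0.27, adjusted p = 0.0312). Its call was lost in edgeR, in DESeq2, after quantile scaling, without the filter on low levels, and without any 1 of libraries 1 and 3 of day 3 and 1 to 3 of day 5 (adjusted p = 0.0577 to 0.104). Of 14 neuroectoderm genes, 3 were called, all as rises (all genes, 9.96%), with a median of 0.39. The 11 not called ranged from Zic1 (-0.32) to Msi1 (0.65), with the forebrain gene Lhx2 at 0.001. The summed level of the list was 194 to 250.2 CPM at day 3 and 278 to 329.6 CPM at day 5, and Hes3 was at 0 throughout.

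Markers of other cell types were examined in the same libraries. Of 22 trophoblast genes, 8 rose (all genes, 9.96%) and Eomes fell, with a median of 0.56. Their summed level was 174 to 207 CPM at day 3 and 390.4 to 452 CPM at day 5, most of it Krt18, Krt8 and Fgfr2. Gata3 rose to 3.71, 3.96, 3.86 and 1.96 CPM from 0, 1.31, 0.24 and 0.36 CPM (1.61 ± 0.31, adjusted p = 0.000165). Of the other trophoblast factors, Elf5 was at 0 in all 8 libraries and Cdx2 at no more than 0.22 CPM. Tfap2c had 0.22 to 1.9 CPM at day 3 and 1.53 to 3.17 CPM at day 5. Tfap2a had 0 to 0.9 CPM and 0.79 to 1.75 CPM, and neither of these was called. Of 20 primitive endoderm genes, 5 rose (all genes, 9.96%) and 2 fell (all genes, 3.97%), with a median of 0.16. Their summed level was 625 to 795 CPM at day 3 and 1037 to 1349 CPM at day 5. The rises were the lipoprotein gene Apoe (1.42), the collagen chaperone gene Serpinh1 (1.12), Lrp2 (1.11), Sparc (0.70) and Lamb1 (0.63). The factors Gata4, Sox17 and Gata6 did not exceed 0.45, 0.23 and 1.09 CPM, while Foxa2, which fell, had 2.35 to 3.32 CPM at day 3. Dab2, which was not called, had 0.81 to 3.62 CPM at day 3 and 3.17 to 6.11 CPM at day 5. The summed level of 11 fibroblast and feeder genes was 42.01 to 52.1 CPM at day 3 and 70.1 to 80.7 CPM at day 5. Their median change was 0.60, and 3 of them rose (all genes, 9.96%). These were Thy1 (0.93), the collagen gene Col1a1 (1.11 ± 0.32, adjusted p = 0.0107) and the growth factor receptor gene Pdgfrb (0.88 ± 0.28, adjusted p = 0.022), while the fibroblast gene Dcn had 3.04 to 9.77 CPM at day 3 and 7.27 to 12.5 CPM at day 5. The Col1a1 call was lost without library 4 of day 5 (adjusted p = 0.0535). That of Pdgfrb was lost without any 1 of libraries 1 and 3 of day 3 and 3 and 4 of day 5 (adjusted p = 0.0531 to 0.123). The part of fibroblasts in the rises of mesenchymal and matrix genes was not tested.

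Blood and vessel genes were near the limit of detection. Of 8 haematopoietic genes, 1 rose and 1 fell (all genes, 9.96% up and 3.97% down), with a median of -0.07. Their summed level was 10.8 to 13.3 CPM at day 3 and 8.72 to 12.4 CPM at day 5. The haemoglobin gene Hbb-bs was at 0 in every day 3 library and at 0.87, 0.79, 1.82 and 0.22 CPM at day 5, and its call was lost without library 3 of day 5 (adjusted p = 0.11). Cd34 was called as a fall (-0.83 ± 0.25, adjusted p = 0.014), which was lost without any 1 of libraries 1 and 3 of day 3 and 2 of day 5 (adjusted p = 0.0501 to 0.0703). Tyrobp was at 0 in all 8 libraries. Of 10 endothelial genes (35.6 to 39.7 CPM and 38.6 to 53.03 CPM, nearly all of it Egfl7; median 0.10), Tek fell (-1.22 ± 0.29, adjusted p = 0.00194) and Cdh5 did not exceed 0.23 CPM.

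Adult skeletal muscle transcripts appeared at day 5 without muscle regulators. Myh4, a fast myosin heavy chain, had 0, 0, 0.47 and 0.36 CPM at day 3 and 29.01, 56.7, 36.4 and 21.6 CPM at day 5 (4.87 ± 0.77, adjusted p = 2.95e-05), and Ttn (titin) had 1.62, 0.22, 1.42 and 0.72 CPM at day 3 and 17.2, 36.1, 27.7 and 16.8 CPM at day 5 (3.67 ± 0.63, adjusted p = 8.61e-05). Trdn, Atp2a1 and Tnnt3, genes of the muscle calcium store and thin filament, were also among the 15 largest rises (2.91, 2.75 and 2.75). Of 22 such genes, a list made after these values were seen, 17 were called, all as rises (all genes, 9.96%). Acta1 took another course, with 37.6 to 102.8 CPM in WT at day 3, 53.01 to 88.7 CPM at day 5 and 17.2 to 23.7 CPM in 2iL. Because members of the sum below were chosen on their course, its course is a description. Without Acta1, Mylpf and Eno3, which were left out because their courses over the groups differed, the sum of the other 19 was 21.5, 17.9, 24.2 and 28.04 CPM at day 3 and 136, 241, 186 and 109 CPM at day 5, while Myod1, Myog, Myf5 and Myf6 together stayed at 0 to 0.45 CPM. The same sum was 102 to 203 CPM in WT 2iL and 30.5 to 35.1 CPM at day 1, and it was high in the 2iL libraries of KO2 and KO3 (277 to 1399.8 CPM) and in all their day 5 libraries (146 to 364 CPM) except 1 of KO2 (30.5 CPM). The part of this signal in the other changes between days was not tested. Without the muscle genes, 2347 genes were called in the step.

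**Figure D3:**
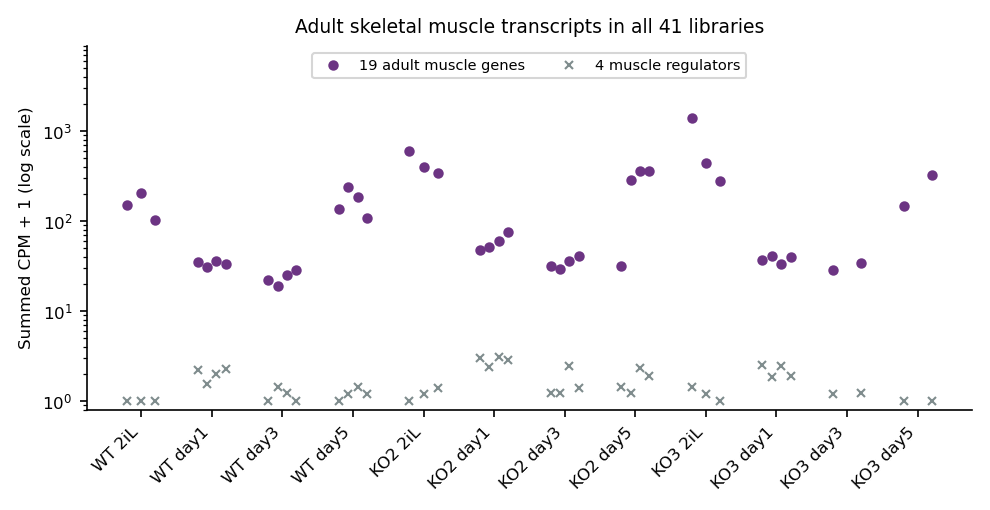
Summed level of 19 adult skeletal muscle genes (points) and of the 4 muscle regulators Myod1, Myog, Myf5 and Myf6 (crosses) in each of the 41 libraries, as CPM + 1 on a log axis, by line and time. The sum of the adult genes is high in 2iL and at day 5 and low at days 1 and 3 in all lines, except in 1 KO2 library of day 5 at 30.5 CPM, while the regulators stay near 0. The 19 genes were chosen after these values were seen, without Acta1, Mylpf and Eno3, whose courses differed, so the pattern is a description.

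Calls among germline genes were falls and those among imprinted genes rises, and most genes of both lists were not called. Of 20 germline genes silenced by DNA methylation, 3 were called, all as falls (all genes, 3.97%; median -0.40), namely Ddx4, Tuba3a (-0.95) and Rpl10l (-0.79). Ddx4 (Vasa), an RNA helicase of germ cells, had 4.87, 3.49, 1.19 and 3.62 CPM at day 3 and 0, 0.40, 0.23 and 0.65 CPM at day 5 (-1.64 ± 0.28, adjusted p = 3.56e-05). The call of Rpl10l, a retrogene copy of Rpl10, was lost without library 3 of day 3 (adjusted p = 0.0774). In the primordial germ cell list of 13 genes (median -0.03), Ddx4 fell (all genes, 3.97%) and the receptor gene Kit rose (all genes, 9.96%). The change of Kit was 0.92 ± 0.29 (adjusted p = 0.0183). The Kit call was lost without library 4 of day 5 (adjusted p = 0.0666) and under quantile scaling. Of 24 imprinted genes, 6 were called, all as rises (all genes, 9.96%; median 0.15). Sgce, expressed from the paternal allele, had 3.25, 6.77, 2.85 and 2.71 CPM at day 3 and 24, 21.2, 17.96 and 15.1 CPM at day 5 (2.12 ± 0.28, adjusted p = 2.89e-07). H19, a growth-restraining RNA, had 8.93, 14.2, 6.88 and 6.33 CPM at day 3 and 44.3, 45.6, 38.9 and 31.9 CPM at day 5 (2.08 ± 0.45, adjusted p = 0.00117). Both were apart between days. Usp29 (0.95), Igf2r (0.74), Peg3 (0.68) and Peg10 (0.94 ± 0.27, adjusted p = 0.011) rose less, and the Peg10 call was lost without library 3 of day 5 (adjusted p = 0.0511). The Igf2r call was lost without any 1 of libraries 3 and 4 of day 3 and 1 and 3 of day 5 (adjusted p = 0.0558 to 0.0754). Magel2, also imprinted and expressed from the paternal allele, was instead among the deepest falls, with 21.5, 20.3, 20.2 and 27.7 CPM at day 3 and 2.62, 4.76, 10.7 and 5.24 CPM at day 5 (-1.90 ± 0.32, adjusted p = 2.75e-05).

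Antigen presentation genes were called in both directions. B2m, the light chain of class I molecules, had 27.8, 46.3, 32.97 and 36.5 CPM at day 3 and 111, 91.3, 73.2 and 77.5 CPM at day 5 (1.28 ± 0.19, adjusted p = 3.32e-06), without overlap. The heavy chain genes H2-K1 (0.75) and H2-D1 (0.59) and Stat2, a transducer of interferon signals (1.28 ± 0.21, adjusted p = 1.76e-05), rose too. The list of 19 interferon and antigen presentation genes held these 4 rises (all genes, 9.96%), 13 genes that were not called, among them Tap1 (0.22), Tapbp (-0.10) and Psmb9 (0.22), and 2 falls (3.97%; median 0.15). The falls were Irf1 (-0.65) and the proteasome gene Psmb8 (-0.86 ± 0.26, adjusted p = 0.012). The Psmb8 call was lost without library 2 of day 3 or library 1 of day 5 (adjusted p = 0.06 to 0.0805). H2-D1 lost its call without any 1 of libraries 3 and 4 of day 3 and 3 of day 5 (adjusted p = 0.0645 to 0.0804), and Irf1 fell short of 1.5-fold without library 3 of day 3 (-0.56).

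Several lists of basic machinery had no call. Limma, edgeR and DESeq2 each called 0 of 30 ribosomal protein genes (median -0.003), of which 0 passed an unadjusted p under 0.05 in limma. All 3 tools also called 0 of 30 nuclear oxidative phosphorylation genes (median 0.03, 3 unadjusted) and 0 of 22 genes of G2 and M (median 0.10, 4 unadjusted). Of 7 mitochondrially encoded genes tested (median -0.40), limma called 0, with 2 unadjusted, while edgeR called 3 and DESeq2 called 2, all falls. Of 9 genes of the 2-cell-like state, all 3 tools called 0, with 0 unadjusted in limma, and their summed level was at most 0.68 CPM. Of 32 sterol and fatty acid genes (median -0.08), 1 fell (all genes, 3.97%), Hsd17b7 (-0.64 ± 0.20, adjusted p = 0.02). That call was lost without library 3 or 4 of day 3 or 1 of day 5 (adjusted p = 0.0555 to 0.118). Of the common reference genes, Gapdh was not called (0.29 ± 0.17, adjusted p = 0.258). Actb lay higher in all day 5 libraries, with 4703 to 5196 CPM at day 3 and 5821 to 6321 CPM at day 5, by less than 1.5-fold (0.30 ± 0.09, adjusted p = 0.012).

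The largest changes went beyond these lists. Slc39a8, a zinc and manganese importer, rose from 12.99, 15.3, 14.2 and 17.01 CPM to 172, 169.8, 92.98 and 111 CPM (3.07 ± 0.21, adjusted p = 3.57e-15). It had stood at 0.22 CPM in 2iL and 0.77 CPM at day 1. Gadd45b, a stress-induced gene, had 2.44, 3.93, 1.42 and 1.27 CPM at day 3 and 46.5, 50.5, 27.96 and 27.5 CPM at day 5 (3.60 ± 0.39, adjusted p = 6.63e-08), and 103, 46.3 and 17.6 CPM in 2iL. Prr5l, a partner of the kinase complex mTORC2, had 1.42, 2.40, 2.61 and 3.62 CPM at day 3 and 33.8, 33.9, 18.2 and 19.6 CPM at day 5 (2.94 ± 0.28, adjusted p = 2.3e-10). The remaining large rises were the serine protease gene Prss23 (2.88), Greb1l (2.73), the relaxin family gene Insl6 (2.68) and the complement inhibitor gene Cd59a (2.67). For Slc39a8 and Prr5l, libraries 1 and 2 of day 5 were well above 3 and 4.

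Trh, which encodes the precursor of thyrotropin-releasing hormone, was the deepest fall among genes above 5 CPM, from 25.6, 30.99, 24.4 and 26.8 CPM to 1.53, 2.77, 2.73 and 1.09 CPM (-3.25 ± 0.42, adjusted p = 1.84e-06). Sgk1, a kinase that growth factors and steroid hormones induce, went from 18.9, 18.6, 36.3 and 30.9 CPM to 1.53, 0.99, 4.09 and 2.40 CPM (-3.09 ± 0.39, adjusted p = 1.1e-06). It had stood at 161 CPM in 2iL and 119.5 CPM at day 1. Aim2, a sensor of cytosolic DNA, had 9.74, 11.1, 12.8 and 10.7 CPM at day 3 and 1.31, 2.58, 3.64 and 2.62 CPM at day 5 (-1.81 ± 0.18, adjusted p = 6.37e-10). Nefh, a neurofilament gene, had 10.9 to 13.2 CPM at day 3 and 1.09 to 5.24 CPM at day 5 (-1.84 ± 0.35, adjusted p = 0.000221). Exoc3l (-2.09), Lbhd1 (-1.93) and Fam19a4 (-1.85) complete the 15 together with genes given above. The days did not overlap in any of the 30 genes with the largest changes (all genes, 27.5%). These genes were chosen on the same libraries, so their separation is a description and not a test.

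**Figure D4:**
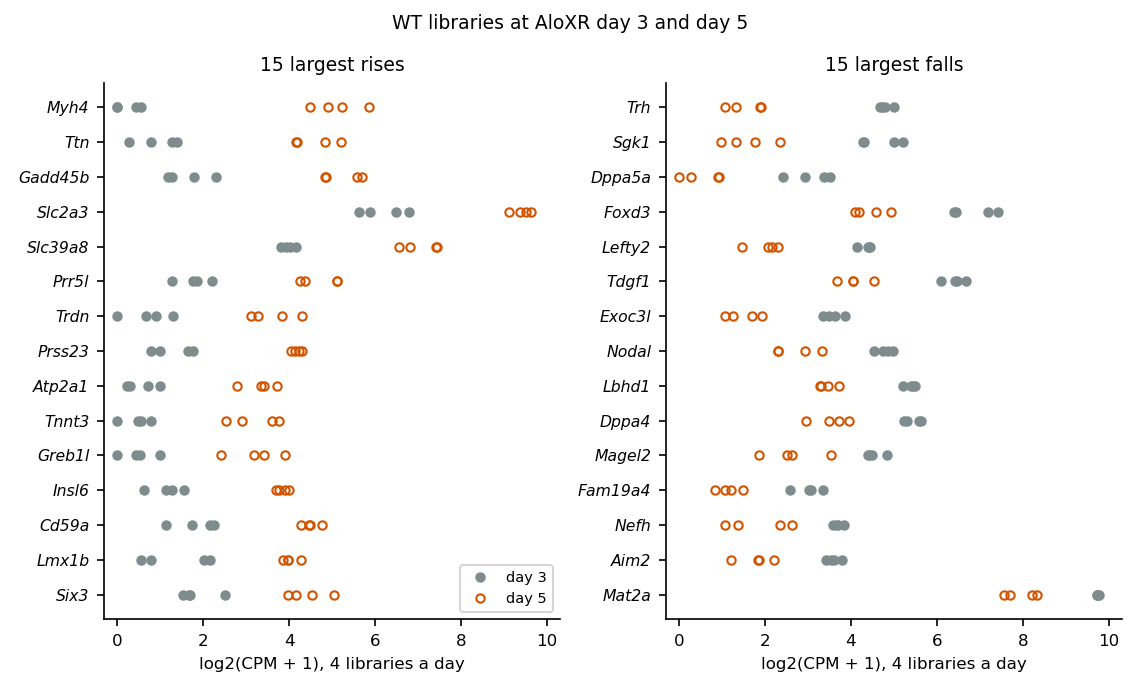
Levels of the 15 largest rises (left) and 15 largest falls (right) among called genes whose mean at day 3 or day 5 reached 5 CPM, as log2(CPM + 1), in the 4 WT libraries of day 3 (filled points) and of day 5 (open circles). For every gene the open circles lie entirely to 1 side of the filled points, which the choice of the genes on these same libraries favours.

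Set against the exit from 2iL, which shares no library with this step, the genes that moved from day 3 to day 5 had often moved the other way before. Of the 1690 rises, 670 (39.6%) had fallen from 2iL to day 1, as had 18.7% of all genes tested (21.2% of the 3166 that fell at exit), and 223 (13.2%) had risen (all genes, 17.8%). Of the 674 falls, 391 (58.0%) had risen at exit, as had 17.8% of all genes (12.97% of the 3014 that rose), and 43 (6.38%) had fallen (all genes, 18.7%). The 3 libraries in 2iL were unequal in this respect. The rises stood above the WT day 1 mean by a median of 0.55 and 0.57 (log2) in 2iL libraries 1 and 2 and by 0.13 in library 3, while the falls were at -0.96, -0.86 and -0.46 from it and all genes at -0.02, 0 and -0.06. Slc2a3, Gadd45b and Ddit3 are examples of genes that were high in 2iL, low at days 1 and 3 and high again at day 5. The summed adult muscle genes given above, which were chosen on their course, took the same course in WT. Whether the muscle signal and the other genes of this course share a source was not tested. Pou3f1, Fgf5, Dnmt3b and Foxd3 are examples of a rise after 2iL and a fall from day 3 to day 5. The fall need not be a return to 2iL, since Fgf5 at day 5 (69.2 to 98.9 CPM) lay far above its level there.

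Fewer genes were called for the same step in the Esrrb-depleted lines. KO2 had 737 called genes (4.34%) from the same number of libraries, 381 up (2.25%) and 356 down (2.1%). KO3 had 185 (1.09%) from 2 libraries at each time, 49 up (0.289%) and 136 down (0.802%). Without library 2 of KO2 day 5, 460 genes were called in KO2, and without any 1 library of KO3, 65 to 82 in KO3. Over the 1690 genes that rose in WT, the median change was 0.91, against 0.28 in KO2 and 0.08 in KO3. Over the 674 that fell it was -0.81, against -0.30 and -0.02. In KO2, 77.6% of the WT rises were above 0 (all genes, 51.8%) and 84.4% of the WT falls below 0 (all genes, 47.5%). The genes called in both lines in the same direction were 184 rises (10.9% of the WT rises, 48.3% of those of KO2) and 97 falls (14.4% and 27.2%). These sets were chosen on the WT values, so the WT medians are a description and not a test against the other lines.

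A direct test of the difference, the KO2 step minus the WT step, called 553 genes (3.26%), 437 with a lower and 116 with a higher change in KO2. The split between lower and higher was 437 to 116 on the deposited scale, 346 to 190 with TMM factors, 315 to 191 after quantile normalization, 422 to 240 in DESeq2 and 287 to 218 in edgeR. Single libraries of KO2 mattered here: without library 1 of KO2 day 5, which also had few muscle transcripts, 869 genes were called, and without library 3 of that group 351. Among WT rises, 308 (18.2%) were called lower in KO2 (all genes, 2.58%), and among WT falls 78 (11.6%) were called higher (all genes, 0.684%). The WT values that chose the sets also enter this test, so these shares are a description.

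**Figure D5:**
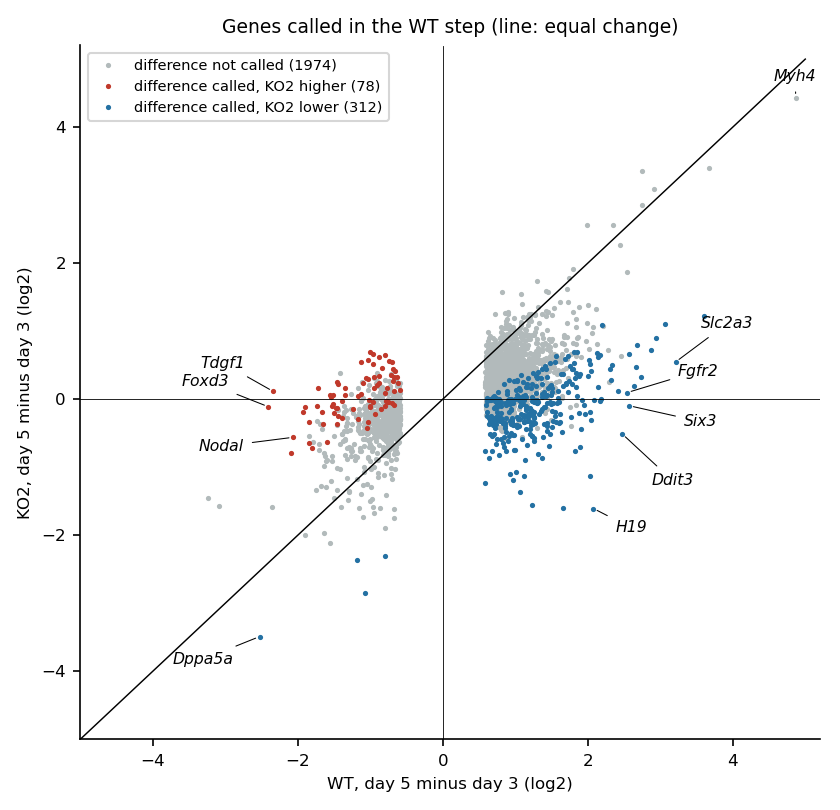
Change from AloXR day 3 to day 5 in WT (horizontal) and KO2 (vertical), in log2, for the 2364 genes called in WT, with the line of equal change. Colours mark the genes whose change differed between the lines by the direct test; Tdgf1, Foxd3, Slc2a3, Ddit3 and H19 lie far from the line and Myh4 near it.

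Named genes fell on both sides of this test. Tdgf1 showed the largest difference in the upward direction: it had 126, 113, 135 and 81.4 CPM at day 3 and 66.5, 109, 159 and 186 CPM at day 5 in KO2, a step of 0.11 against -2.34 in WT (difference 2.45 ± 0.27, adjusted p = 4.77e-07). Foxd3 held 64.4, 49.5, 85.04 and 75.4 CPM and 28.9, 49.7, 112 and 91.8 CPM in KO2 (difference 2.30 ± 0.54, adjusted p = 0.0129). Etv1 differed by 1.89 ± 0.47, adjusted p = 0.0192, Etv5 by 1.28 ± 0.15, adjusted p = 4.95e-07, and Nodal by 1.504 ± 0.40, adjusted p = 0.0254. Magel2 (1.78) and the adhesion receptor gene Adgrb2 (1.81), which was at -0.01 in WT and rose in KO2 (1.80), were the others among the 5 largest. For Pou3f1 (0.75 ± 0.25, adjusted p = 0.0898), Dnmt3b (0.78 ± 0.37, adjusted p = 0.282) and Lefty2 (0.77 ± 0.55, adjusted p = 0.536) the difference did not pass, which does not show that the lines acted alike.

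In the downward direction the largest differences were those of H19, Rhox6, Cryab, Ddit3 and Fabp3. H19 went from 571, 804, 163 and 216 CPM to 291, 129, 71.2 and 67.8 CPM in KO2, a fall of 1.61 on the log2 scale where WT rose by 2.08 (difference -3.69 ± 0.63, adjusted p = 0.000884). Ddit3 was at 28.3, 30.3, 22.3 and 28.3 CPM and 30.97, 38.3, 8.46 and 11.7 CPM (difference -2.99 ± 0.56, adjusted p = 0.002). Slc2a3 was at 131, 129, 69.2 and 63.02 CPM and 271, 179.6, 79.04 and 88.05 CPM (difference -2.67 ± 0.51, adjusted p = 0.00222). The change was also lower in KO2 for Six3 (difference -2.67), Fgfr2 (-2.45), Anxa2 (-2.10) and Krt18 (-2.12). The KO2 steps of these 4 genes were -0.10, 0.10, -0.01 and -0.81. By list, lower changes in KO2 (2.58% of all genes) were called for 13 of 22 trophoblast genes, 5 of 13 primordial germ cell genes, 7 of 20 epithelial genes, 7 of 20 matrix genes and 7 of 22 mesenchymal and actin genes. Smaller shares were lower among immediate early (5 of 18), amino acid stress (4 of 17), interferon and antigen presentation (4 of 19), imprinted (5 of 24), heat shock (3 of 16) and glucose and hypoxia genes (5 of 27), and in the remaining lists the share was at most 2 of 11. Higher changes in KO2 (0.684% of all genes) were called for 6 of 27 formative genes, with 1 lower, and 5 of 20 FGF and ERK genes, with 2 lower. The core pluripotency and Nodal lists had 2 higher each (of 13 and 20), and no list had a larger share of higher calls than the FGF and ERK list. Because lists share genes, these counts overlap. Some genes moved in the same direction in these lines: Dppa4 (-2.24 in KO3), Socs3 (1.33 in KO2) and Myh4 (4.43 and 4.45) were called as in WT.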

How the data were processed

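The authors deposited 1 table of CPM (reads scaled to a common total) for 55487 genes in 41 libraries, each column summing to 1000000. Per the submitters' processing notes, STAR 2.7.6a, featureCounts 2.0.1 and GRCm38 were used; strand setting and treatment of multimapped reads are not given in the sources used here. All 766190 values above 0 were whole multiples of 1 read (within 0.01 reads), so reads were recovered for count models (3424064 to 5736053 per library).

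Differences were tested with limma 3.58.1 (R 4.3.3) on log2(CPM + 1) over the 16967 genes that reached 1 CPM in 3 or more libraries, in 1 fit of 12 groups (29 residual degrees of freedom, trended robust variances, Benjamini-Hochberg adjustment). A pseudocount of 1 understates changes of low genes. The edgeR 4.0.16 quasi-likelihood test on recovered reads called 2287 genes, and DESeq2 1.42.0 called 2323. Named genes were Esrrb, 31 reference genes, the 15 largest rises and falls with at least 5 CPM, up to 4 called members of each of 40 lists, and the 5 largest differences of KO2 from WT in each direction. Other members were added as values only. Groups and lists were chosen with earlier results of these data known. Replicates within a day were numbered in accession order. Scripts were tested on simulated data.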

Additional observations from a re-analysis of the deposited data

Results flagged for a closer look

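In 8 of 135 groups of 4 libraries examined (59 genes and library measures), 1 library stood apart from the other 3; chance gives about 1 in 20. In WT at day 5 these were Cdh2 in library 1 (2.62 CPM, high), Dnmt3a in library 2 (193.4 CPM, low), Dnmt3l in library 4 (0.65 CPM, high), Fgf5 in library 4 (69.18 CPM, low) and Zic5 in library 4 (189.2 CPM, low). In WT at day 3 they were Lefty2 in library 1 (16.64 CPM, low) and Six3 in library 4 (4.7 CPM, high). The sum of 19 adult muscle genes was low in library 1 of KO2 at day 5 (30.51 CPM).

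The step differed between KO2 and WT, by a test of the difference in limma, for 553 genes (3.26% of all genes), among them 29 of 66 named genes. These 66 include the largest differences of this same test and the largest WT changes, which enter it. Their higher share follows from that choice and is a description. The change in KO2 minus that in WT was higher for Tdgf1 (2.454), Foxd3 (2.297), Etv1 (1.891), Adgrb2 (1.806), Magel2 (1.779), Lbhd1 (1.747), Nodal (1.504), Exoc3l (1.294), Fam19a4 (1.206), Aim2 (1.098) and Fgf5 (0.691), in log2. For all of these but Adgrb2, WT fell. It was lower for H19 (-3.687), Rhox6 (-3.286), Cryab (-3.252), Ddit3 (-2.989), Fabp3 (-2.974), Six3 (-2.67), Slc2a3 (-2.665), Dnmt3l (-2.493), Lmx1b (-2.453), Greb1l (-2.416), Gadd45b (-2.386), Sox1 (-2.192), Cd59a (-2.188), Prss23 (-2.153), Prr5l (-2.05), Slc39a8 (-1.971), Insl6 (-1.885) and Dppa5a (-0.963). Of these, WT rose for all but Dppa5a, which fell more in KO2, and Rhox6, Fabp3 and Dnmt3l, which were not called in WT.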

How the results depend on the processing

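The direction of the step held for each of the 131 named genes that were called, under the alternatives run. From WT day 3 to day 5, against 2364 genes, 1309 were called with a pseudocount of 5 CPM (1295 of them among the 2364), 833 at 2-fold (833), 1992 to 2197 without 1 library (1888 to 2022), 898 from libraries 1 and 2 of both days only (816) and 1228 from libraries 3 and 4 only (1050). The last 2 settings, and the one without muscle genes, were added after seeing the data. Fewer libraries or a stricter rule account by construction for the lower counts at 2-fold and with libraries left out; for the others the cause was not tested. A pseudocount of 5 CPM gave 1702 genes against 3177 from WT day 1 to day 3 (1698 shared), 4016 against 6180 from 2iL to day 1 (4009 shared) and 391 against 737 in KO2 (370 shared). Without 1 library, KO2 gave 460 (without library 2 of day 5) to 759 genes, and KO3 65 to 82 against 185 (59 to 76 shared), where the lone sample is assumed to vary like the other groups. The difference of KO2 from WT gave 335 genes instead of 553 with no filter on low levels and 351 to 869 without 1 library. Among named genes and list counts, 4624 values were classed as the same. That class includes genes called in neither setting and list counts that changed little, so it is not a number of calls kept. Of the other values, 210 lost their call, 24 gained one and 208 were counts that moved further. No paired analysis was possible because the labels give no replicate numbers that pair libraries across days. Of 64 called list members given only as changes, 22 lost the call without some 1 library. Depth limits genes below 1 CPM, where a call rests on a few reads.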
